A study of Mus musculus with 12 samples.

Results

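The genes described here encode factors that start and carry out protein synthesis on the ribosome, measured in germ cells of female mouse embryos at embryonic day 13.5. A gene was a member if its symbol in the deposited table began with Eif or Eef followed by a digit. The X-linked Eif2s3x was left out, and so was Eif2s3y, its Y-linked copy, which is not among the listed symbols. This gave 61 genes of 12516 listed, and all 61 passed the filter on low values, which kept 12432 genes.

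RNA came from Oct4-positive cells sorted from single embryos and was measured by RNA sequencing in bulk. In 6 embryos the mother had vitamin C withdrawn for the first 2 weeks of gestation (withdrawn embryos), and in 6 embryos the mother received vitamin C at a physiological level (supplied embryos). All 12 embryos were female, on a C57BL/6 background and Gulo-/-, which removes the enzyme for the final step in making vitamin C, and the colony takes the vitamin from its diet. The embryo itself therefore had no synthesis of its own in either group, and the comparison asks how the mother's intake affects the germ cells. Each value below is a normalized log2 expression value of 1 gene in 1 embryo. Each title also has a number between 1 and 4, used for both diets, and nothing in the labels tells whether embryos that have number and diet in common are littermates. The p-values treat the 12 embryos as independent, and they would be too small if siblings are among them. A fit with a random effect estimated a correlation of 0.27 between embryos that share title number and diet, which the reported p-values do not include. That fit called 7.13% of all genes at an adjusted p below 0.05, against 14.0% in the reported fit.

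Translation starts when eIF2 carries the initiator tRNA to the small ribosomal subunit, with eIF1, eIF1A, eIF5 and the large complex eIF3. The cap-binding complex of eIF4E, eIF4G and the helicase eIF4A brings in the messenger RNA, and eIF5B joins the large subunit. In elongation eEF1A delivers aminoacyl-tRNAs, eEF2 moves the ribosome on, and eIF5A assists it at stretches that are hard to translate. Cells restrain initiation by phosphorylating eIF2 and by 4E-BP proteins that sequester eIF4E and are inactivated by the kinase mTOR. In the fetal ovary, germ cells of this age are passing from proliferation into meiosis.

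The check of the cell type found 10 of 10 germ cell markers listed, with 9 above the median gene, and their mean lay between 10.83 and 10.94 in withdrawn embryos and between 10.83 and 10.95 in supplied embryos. Within that list of 10, 4 genes were called higher in withdrawn embryos and 3 lower, where 14.0% of all genes were called in either direction. Those called higher were Dppa5a (0.49 on the log2 scale), Pou5f1, the Oct4 gene used for the sort (0.45), Tfap2c (0.39) and Dppa3 (0.23). Those called lower were Mael (-0.77), Dazl (-0.43) and Ddx4 (-0.34). Markers of other gonadal cells were low, with 0 of 12 supporting cell, 0 of 5 mesenchymal, 0 of 5 macrophage, 0 of 4 mesonephric and 1 of 5 endothelial markers (Pecam1) above the median gene, and 0 of 8 erythroid markers listed. Apart from the erythroid list, these counts cover markers that were listed and passed the filter. The markers sought were 12 supporting cell, 8 mesenchymal, 8 macrophage, 6 mesonephric and 7 endothelial. All 12 supporting cell and all 5 mesenchymal markers had lower means in withdrawn embryos, and none of them was called. Over all the lists of other gonadal cells 1 marker was called, the mesonephric marker Gata3 (-0.19). Pecam1 was at 0.20, was not called, and was left out of the mean of the other 30 somatic markers. That mean lay between 4.95 and 5.05 in withdrawn embryos and between 4.97 and 5.17 in supplied embryos. The part of the somatic markers in the results below, and that of the germ cell markers, was not tested beyond the covariate fit given with the counts. In bulk RNA, fewer cells of a type and less RNA per cell cannot be told apart.

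Most translation factor genes had slightly higher means in withdrawn embryos, and 10 passed the test. Of the 61 genes, 9 were called higher and 1 lower (limma, adjusted p below 0.05 over all genes tested), and the 9 were Eif3l, Eif3k and Eif3e of eIF3, Eif2s2, Eif1a, Eif4h, Eif4e2, Eif4ebp1 and Eef1b2. The gene called lower was Eif5a2. The share called higher was 14.8% and the share called in either direction was 16.4%. The table as a whole had 6.22% called higher, 7.75% called lower and 14.0% called in either direction. The log2 fold change, withdrawn minus supplied, was positive for 46 of 61 genes, or 75.4%, where 46.6% of all genes were positive. Its median was 0.10 over the 61 genes and -0.01 over all genes. The factors were more highly expressed than the table as a whole, with a median level of 10.51 against 8.13, and genes were not matched on level. Among genes with a mean of at least 6, 18.6% of 59 factors were called higher, against 8.37% of all such genes. The median fold change of all such genes was 0.003. Changes were small, since the called genes differed by 0.21 to 0.42 on the log2 scale in either direction, or 1.15-fold to 1.34-fold, and 0 of the 61 genes reached 0.5. In 3 genes, Eif3l, Eif2s2 and Eif4e2, the 2 groups did not overlap. That is 4.92% of the 61, against 4.49% of all genes, so by this rank measure the factors lay near the background.

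The mean over all 61 genes lay between 10.44 and 10.58 in withdrawn embryos and between 10.34 and 10.43 in supplied embryos. The calls depended on the 4 embryos with title number 4. Without them, limma called 0 of the 61 genes and 0.394% of all genes, and 49 of the 61 had a positive fold change. An unadjusted p below 0.05 was then found for 10 of the 61, or 16.4%, near the 15.8% of all genes. The groups of 4 and 4 embryos did not overlap for 8 of the 61, or 13.1%, against 8.34% of all genes. Leaving out title number 1 instead, which also holds 2 embryos of each diet, gave 8 called higher and 1 lower. Over all genes that fit called 2.61% higher and 3.25% lower. Leaving out number 2 or number 3 gave 7 and 9 called higher, where 5.19% and 6.65% of all genes were called higher. With the mean of the 30 somatic markers as a covariate, limma called 0 of the 61 and 3 of all 12432 genes, and 11 of the 61, or 18.0%, had an unadjusted p below 0.05, as did 17.9% of all genes. Single embryos moved the count as well. The genes called higher numbered 15 without supplied replicate 4, where 8.32% of all genes were called higher. They numbered 5 without supplied replicate 5, withdrawn replicate 4 or withdrawn replicate 6, where that share was 2.94%, 4.58% and 4.32%.

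**Figure D1:**
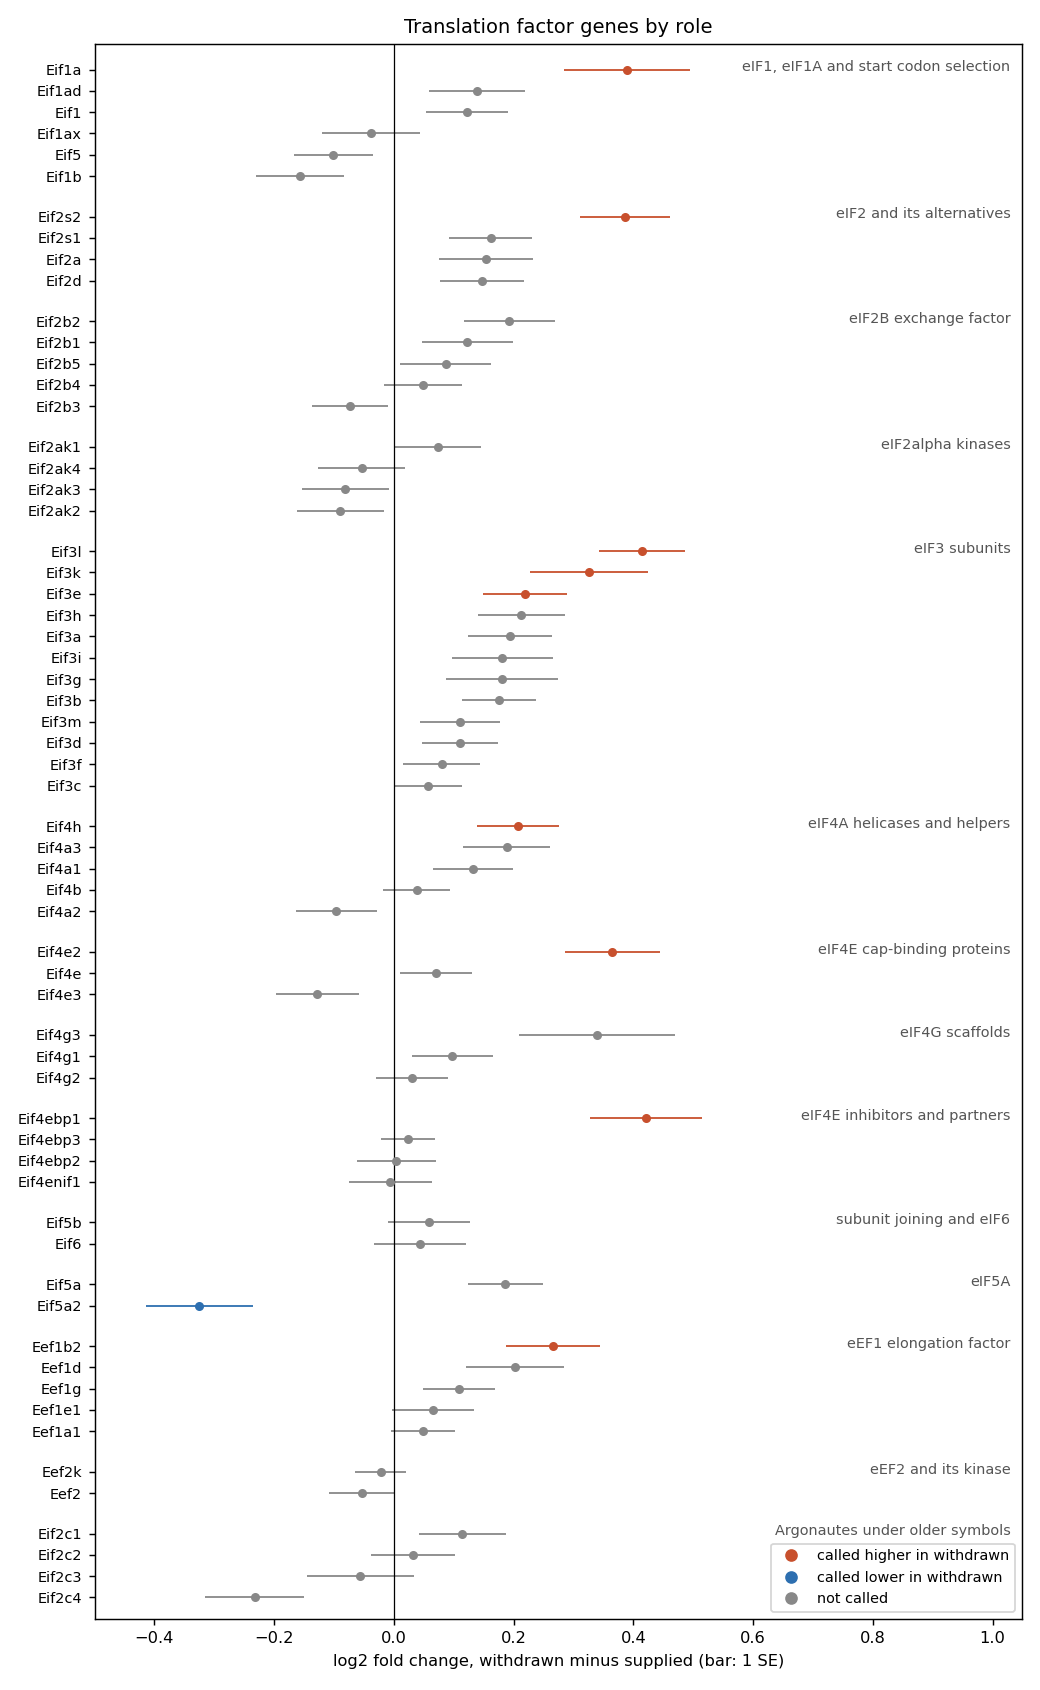
Log2 fold change of the 61 translation factor genes, withdrawn minus supplied, with genes grouped by role down the page and 1 SE as the bar; red marks genes called higher in withdrawn embryos, blue the gene called lower, and grey genes not called. The 12 eIF3 subunits shown lie right of 0 (Eif3c turns to -0.03 under quantile normalization), the 9 genes called higher lie between 0.21 and 0.42, and Eif5a2 lies at -0.32.

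Promoter sequence is shown for the 3 genes whose groups did not overlap and for Eif5a2, the gene called lower, since these carry the differences without overlap and the single call in the other direction. Each window runs from 120 bases before to 30 bases after the start of the gene as RefSeq places it in GRCm38.p6, 5′ to 3′ on the gene's own strand. Capitals mark matches to 6 motifs searched on both strands: the GC box GGGCGG, the ETS core CCGGAAG, the E-box CACGTG, the CCAAT box CCAAT, the TATA box TATAAA and the NRF1 core GCGCATGC. No 2 of the marked matches overlap. The windows are chr15:79075103-79075252 (plus strand), chr2:154892877-154893026 (minus strand), chr1:87213791-87213940 (plus strand) and chr3:28781157-28781306 (plus strand), in the order Eif3l, Eif2s2, Eif4e2 and Eif5a2. RefSeq gives 3 starts for Eif4e2, of which the first is used.
Eif3l: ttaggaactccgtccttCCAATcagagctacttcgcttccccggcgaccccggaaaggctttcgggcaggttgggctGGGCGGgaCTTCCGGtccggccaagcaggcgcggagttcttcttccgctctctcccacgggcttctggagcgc
Eif2s2: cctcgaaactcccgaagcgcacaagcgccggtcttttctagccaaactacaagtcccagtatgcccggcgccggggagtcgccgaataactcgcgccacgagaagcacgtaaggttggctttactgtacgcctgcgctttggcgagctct
Eif4e2: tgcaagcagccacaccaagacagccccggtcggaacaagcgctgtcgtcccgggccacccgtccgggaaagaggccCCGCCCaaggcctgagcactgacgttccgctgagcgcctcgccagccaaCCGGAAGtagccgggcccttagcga
Eif5a2: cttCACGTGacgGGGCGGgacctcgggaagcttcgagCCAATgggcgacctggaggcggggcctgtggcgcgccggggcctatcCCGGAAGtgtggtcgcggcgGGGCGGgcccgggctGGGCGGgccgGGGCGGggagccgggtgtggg
The Eif3l window holds a CCAAT box, a GC box and, on the other strand, an ETS core. The Eif4e2 window holds a GC box on the other strand and an ETS core 6 bases into the transcript, counted from the start as base 1. The Eif5a2 window holds 7 matches, of which 4 are GC boxes and the others an E-box, a CCAAT box and an ETS core. The Eif2s2 window holds none of the 6 motifs, which says only that these letters are not in those 150 bases.

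RefSeq promoters were found for 48 of the 61 genes, and for 9512 genes of the table. The ETS core was in 13 of the 48 windows, or 27.1%, against 15.0% of the 9512. The E-box was in 9 windows, or 18.8%, against 6.92%. The GC box was in 31 windows, or 64.6%, against 58.1%, and the CCAAT box in 13, or 27.1%, against 28.5%. The NRF1 core was in 4 windows, or 8.33%, against 4.38%, and the TATA box in 2, or 4.17%, against 2.57%. These shares describe letters in a window and were not tested, and they say nothing about binding.

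Among the factors that form the first complex on the small subunit, Eif2s2 and Eif1a rose. Eif2s2, which encodes the beta subunit of eIF2, ranged from 11.37 to 11.75 in withdrawn embryos (median 11.49), against 10.95 to 11.31 in supplied embryos (median 11.15). Every withdrawn embryo lay above every supplied embryo. Its log2 fold change was 0.39 (SE 0.08, limma adjusted p = 0.00353), or 1.31-fold. The other 3 genes of this group had positive fold changes that did not pass, namely the alpha subunit gene Eif2s1 (0.16, adjusted p = 0.119) and the genes of the alternative initiator tRNA carriers Eif2a (0.15, adjusted p = 0.187) and Eif2d (0.15, adjusted p = 0.162).

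Eif1a, one of 2 genes for the scanning factor eIF1A, ranged from 8.74 to 9.22 in withdrawn embryos (median 8.95), against 8.24 to 8.88 in supplied embryos (median 8.66). The groups overlapped, but all 6 withdrawn embryos were above the supplied mean. Its log2 fold change was 0.39 (SE 0.11, limma adjusted p = 0.0186). The 2 supplied embryos of title number 4 were the lowest of all 12. Its X-linked counterpart Eif1ax had a fold change of -0.04 (adjusted p = 0.797), and that sign turned in 4 of 28 alternatives. Of the remaining start codon factors, Eif1 was at 0.12 and its copy Eif1b at -0.16, and the GTPase activator gene Eif5 was at -0.10; limma called none of these 3. Eif1ad, which encodes a protein with an eIF1A-like domain, was at 0.14 and was not called.

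The exchange factor eIF2B, which recharges eIF2 with GTP, has 5 subunit genes, of which 4 had positive fold changes and limma called none. An unadjusted p below 0.05 was found for 1 of the 5, against 37.7% of the 61 factors and 30.2% of all genes. Eif2b2, the member with the smallest p, ranged from 7.48 to 7.98 in withdrawn embryos (median 7.57), against 7.37 to 7.52 in supplied embryos (median 7.42). The groups overlapped, and 1 embryo, withdrawn replicate 5, stood well above the rest. Its fold change was 0.19 (SE 0.08, limma adjusted p = 0.0909). The 4 kinases that phosphorylate eIF2 were not called either, 0 had an unadjusted p below 0.05, and 3 had negative fold changes. Eif2ak2, the kinase PKR that senses double-stranded RNA, ranged from 7.46 to 7.65 in withdrawn embryos (median 7.54), against 7.35 to 7.77 in supplied embryos (median 7.67), with a fold change of -0.09 (SE 0.07, limma adjusted p = 0.433). The endoplasmic reticulum kinase PERK (Eif2ak3) was at -0.08, the amino acid sensor GCN2 (Eif2ak4) at -0.05 and the heme-regulated kinase HRI (Eif2ak1) at 0.07.

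All 12 subunit genes of eIF3 within the name pattern had positive fold changes, from 0.06 to 0.41 with a median of 0.18, with Eif3c turning to -0.03 under quantile normalization, and 3 were called higher. eIF3 is the largest initiation factor and joins the small subunit to the messenger RNA complex. Its mean over the 12 genes lay between 11.63 and 11.94 in withdrawn embryos and between 11.49 and 11.61 in supplied embryos. These means are given as a description, without a test. A further eIF3 gene, Eif3j2, is listed under the symbol Gm9781 and so is not among the 61; it averaged 4.54 in withdrawn and 4.47 in supplied embryos, a fold change of 0.07 (SE 0.04, limma adjusted p = 0.235).

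Eif3l, a peripheral subunit, ranged from 11.96 to 12.25 in withdrawn embryos (median 12.05), against 11.46 to 11.90 in supplied embryos (median 11.65). The groups did not overlap. Its mean was 12.07 ± 0.11 in withdrawn and 11.66 ± 0.15 in supplied embryos (SD, n = 6 each), a log2 fold change of 0.41 (SE 0.07, limma adjusted p = 0.00219), or 1.33-fold, and the smallest adjusted p among the 61 genes. Eif3k, the partner of Eif3l at the edge of the complex, ranged from 10.41 to 11.14 in withdrawn embryos (median 10.63), against 10.21 to 10.47 in supplied embryos (median 10.36). The withdrawn embryos of title numbers 3 and 4 were high, while the 3 of numbers 1 and 2 lay within or next to the supplied range. The fold change of Eif3k was 0.33 (SE 0.10, limma adjusted p = 0.0303). Eif3e ranged from 10.80 to 11.09 in withdrawn embryos (median 10.92), against 10.51 to 10.86 in supplied embryos (median 10.73), with overlap, and had a fold change of 0.22 (SE 0.07, limma adjusted p = 0.0395). A near-identical copy of the Eif3e transcript was found in the reference transcripts, so reads of Eif3e may be divided. The same holds for Eif3h, Eif3m and Eif4ebp3, with 1 copy each, and for Eif4a1, Eif4a3 and Eef1g, with 3 each.

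Of the other eIF3 genes, the 3 closest to the threshold were Eif3h (0.21, adjusted p = 0.0528), Eif3b (0.18, adjusted p = 0.0607) and the core subunit Eif3a (0.19, adjusted p = 0.0655). In each of them all 6 withdrawn embryos were above the supplied mean. The remaining 6 (Eif3c, Eif3d, Eif3f, Eif3g, Eif3i and Eif3m) had fold changes between 0.06 and 0.18. Within diets, the 12 eIF3 genes varied together across the 12 embryos with a median pairwise correlation of 0.35, against 0.08 for all pairs among the 61 genes and 0.00 for all genes, as a description of embryos that share library and normalization.

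**Figure D2:**
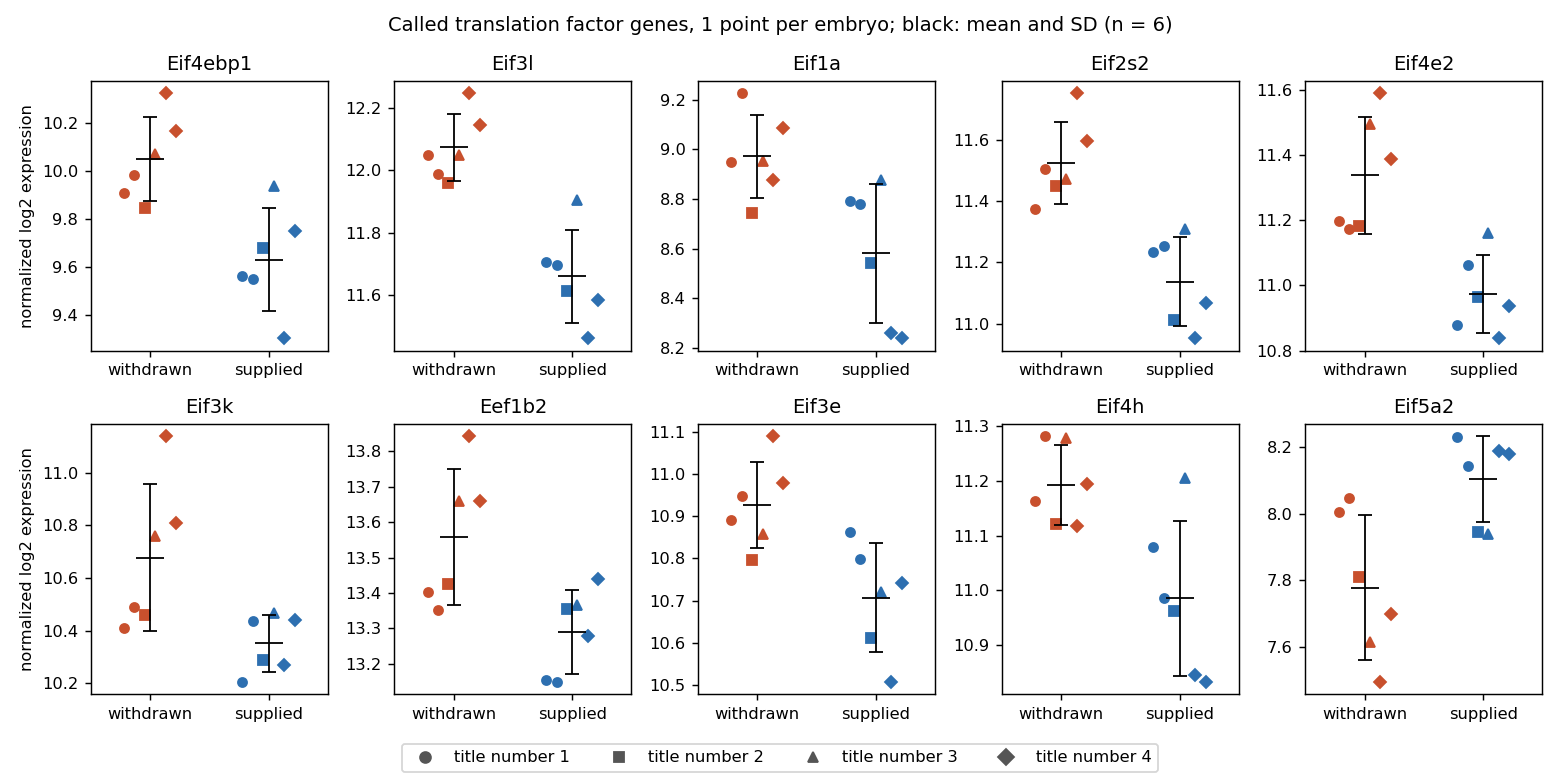
Normalized log2 expression of the 10 called genes, 1 point per embryo, with withdrawn embryos in red on the left and supplied embryos in blue on the right of each panel; the marker shape gives the title number, and black bars give the mean and SD of 6 embryos. Withdrawn and supplied embryos do not overlap for Eif3l, Eif2s2 and Eif4e2, and for Eif5a2 the withdrawn embryos lie low.

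Among the factors that act at the cap, Eif4e2 and Eif4ebp1 rose, and both encode proteins that can oppose cap-dependent initiation. Other calls at this step go the other way. Eif4h, which encodes a helper of eIF4A, was higher, and Pdcd4, which encodes an inhibitor of eIF4A, was lower. Protein and translation were not measured. Eif4e2 encodes 4EHP, a cap-binding protein that binds eIF4G poorly and acts in repressor complexes. It ranged from 11.17 to 11.59 in withdrawn embryos (median 11.29), against 10.84 to 11.16 in supplied embryos (median 10.95). The groups did not overlap, though the 3 withdrawn embryos of title numbers 1 and 2 lay close above the highest supplied embryo. Its fold change was 0.36 (SE 0.08, limma adjusted p = 0.00640), or 1.29-fold. The canonical cap-binding gene Eif4e ranged from 10.27 to 10.46 in withdrawn embryos (median 10.35), against 10.22 to 10.36 in supplied embryos (median 10.29), and its fold change was 0.07 (SE 0.06, limma adjusted p = 0.461). Eif4e3, a further cap-binding relative, was at -0.13 and was not called.

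Eif4ebp1 encodes 4E-BP1, the inhibitor that holds eIF4E until mTOR phosphorylates it. Its values were 9.85 to 10.33 in withdrawn embryos (median 10.03), against 9.30 to 9.94 in supplied embryos (median 9.62). Supplied replicate 4 lay within the withdrawn range, and the other 5 supplied embryos lay below it. The fold change was 0.42 (SE 0.09, limma adjusted p = 0.00721), or 1.34-fold, the largest among the 61 genes in the reported fit. The relatives Eif4ebp2 and Eif4ebp3 were at 0.00 and 0.02, and Eif4enif1, which encodes the eIF4E transporter 4E-T, was at -0.01. Limma called none of these 3, and the sign of each turned in some alternatives.

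For the helicase eIF4A, which unwinds the leader of the messenger RNA, the helper gene Eif4h was called. It ranged from 11.12 to 11.28 in withdrawn embryos (median 11.18), against 10.83 to 11.20 in supplied embryos (median 10.97), and the only overlap came from supplied replicate 4. Its fold change was 0.21 (SE 0.07, limma adjusted p = 0.0469), the highest adjusted p of the 10 calls. The helicase genes Eif4a1 (0.13) and Eif4a2 (-0.10) had opposite signs, the exon junction helicase gene Eif4a3 was at 0.19 and the helper Eif4b at 0.04, and limma called none of these 4. Among the eIF4G scaffolds, Eif4g3 had a difference that did not pass. It ranged from 10.48 to 11.33 in withdrawn embryos (median 10.71), against 10.05 to 10.84 in supplied embryos (median 10.45), and the groups overlapped widely. Its fold change was 0.34 (SE 0.13, limma adjusted p = 0.0829), with the highest SE of the 61 genes. Eif4g1 was at 0.10 and Eif4g2 at 0.03. The subunit joining gene Eif5b ranged from 12.96 to 13.11 in withdrawn embryos (median 13.08), against 12.82 to 13.25 in supplied embryos (median 12.99), a fold change of 0.06 (SE 0.07, limma adjusted p = 0.599), and Eif6, which keeps the large subunit apart, was at 0.04.

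Among the elongation factors, Eef1b2 rose and Eif5a2 fell. Eef1b2 encodes a subunit of the exchange factor that recharges eEF1A with GTP. It ranged from 13.35 to 13.84 in withdrawn embryos (median 13.54), against 13.15 to 13.44 in supplied embryos (median 13.32). The withdrawn embryos of title numbers 3 and 4 lay above all supplied embryos, and the other 3 lay within the supplied range. This gave a fold change of 0.27 (SE 0.08, limma adjusted p = 0.0283). The other exchange factor subunits Eef1d (0.20) and Eef1g (0.11) were not called, nor was Eef1e1 (0.07), whose protein belongs to the aminoacyl-tRNA synthetase complex. Eef1a1, the tRNA carrier itself, ranged from 14.51 to 14.64 in withdrawn embryos (median 14.53), against 14.44 to 14.64 in supplied embryos (median 14.48). Its fold change was 0.05 (SE 0.05, limma adjusted p = 0.574), and 7 near-identical copies of its transcript may share its reads.

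The translocase gene Eef2 ranged from 14.54 to 14.72 in withdrawn embryos (median 14.64), against 14.56 to 14.78 in supplied embryos (median 14.70). The groups overlapped over most of their range, with a fold change of -0.05 (SE 0.05, limma adjusted p = 0.550). Its inhibitory kinase Eef2k was at -0.02, and both signs turned under quantile normalization. Limma called neither Eef2 nor Eef1a1, the genes with the highest levels per kilobase of the 61.

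Eif5a2 was the single factor called lower. Eif5a and Eif5a2 encode 2 forms of eIF5A, which carries the modified amino acid hypusine, and the level per kilobase was 5.61 for Eif5a2 and 11.87 for Eif5a on the log2 scale. Eif5a2 ranged from 7.50 to 8.05 in withdrawn embryos (median 7.75), against 7.94 to 8.23 in supplied embryos (median 8.16). Of the 6 withdrawn embryos, 2 lay within the supplied range and the other 4 below it. Its mean was 7.78 ± 0.22 in withdrawn and 8.10 ± 0.13 in supplied embryos (SD, n = 6 each), a log2 fold change of -0.32 (SE 0.09, limma adjusted p = 0.0204), and all 6 withdrawn embryos were below the supplied mean. Eif5a ranged from 12.36 to 12.71 in withdrawn embryos (median 12.46), against 12.22 to 12.40 in supplied embryos (median 12.29), with a fold change of 0.19 (SE 0.06, limma adjusted p = 0.0501) just outside the threshold.

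The name pattern also takes in Eif2c1 to Eif2c4, older symbols of the Argonaute genes Ago1 to Ago4, whose proteins bind small RNAs and are not translation factors. Of these 4, Eif2c4 had the smallest p and was not called. It ranged from 6.21 to 6.51 in withdrawn embryos (median 6.35), against 6.20 to 6.76 in supplied embryos (median 6.63), with a fold change of -0.23 (SE 0.08, limma adjusted p = 0.0613). Without the 4 Argonaute genes, 57 genes remained, with the same counts of 9 called higher and 1 lower and a median fold change of 0.11.

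Within a family, fold changes of related genes differed in sign or size, and a ratio taken inside each embryo gives this without the scaling of the library. These pairs were chosen with the values known, so their differences are given without a test. The log2 ratio of Eif5a2 to Eif5a was -4.71 ± 0.30 in withdrawn and -4.20 ± 0.14 in supplied embryos (SD, n = 6 each). It ran from -5.22 to -4.43 in withdrawn and -4.41 to -4.04 in supplied embryos, without overlap but with a narrow gap. The fold changes of Eif5a2 and Eif5a had opposite signs, so their ratio adds no independent result. How often ratios of other gene pairs in the table do not overlap was not computed. The ratio of Eif4ebp1 to Eif4ebp2 was 0.95 ± 0.22 in withdrawn and 0.53 ± 0.21 in supplied embryos, a difference of 0.42, while that of Eif4ebp2 to Eif4ebp3 differed by -0.02. For Eif4ebp1 to Eif4ebp2, title number 4 held the highest withdrawn ratios (1.22 and 1.20) and the lowest supplied ratio (0.16). In number 2 it was 0.74 in the withdrawn and 0.69 in the supplied embryo.

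The ratio of Eif4e2 to Eif4e was 0.97 ± 0.15 in withdrawn and 0.68 ± 0.15 in supplied embryos, a difference of 0.29. The ratio of Eif1b to Eif1 was -0.71 ± 0.11 in withdrawn and -0.43 ± 0.22 in supplied embryos, a difference of -0.28 between genes that were not called on their own. Supplied replicate 5, of title number 4, was at -0.02, with the other supplied embryos between -0.63 and -0.37. In number 2 the ratio was -0.65 in the withdrawn and -0.63 in the supplied embryo. For Eif4a1 to Eif4a2 it was 0.21 ± 0.16 in withdrawn and -0.01 ± 0.09 in supplied embryos. For Eif1a to Eif1ax the difference was 0.43, with an SD of 0.40 among supplied embryos. The supplied embryos of title number 4 had the lowest ratios, at -1.49 and -1.83. In number 2 the order was reversed, with the withdrawn embryo at -1.18 and the supplied embryo at -1.02. The 3 eIF4G ratios differed by 0.24, 0.31 and 0.07 with wide overlap.

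**Figure D3:**
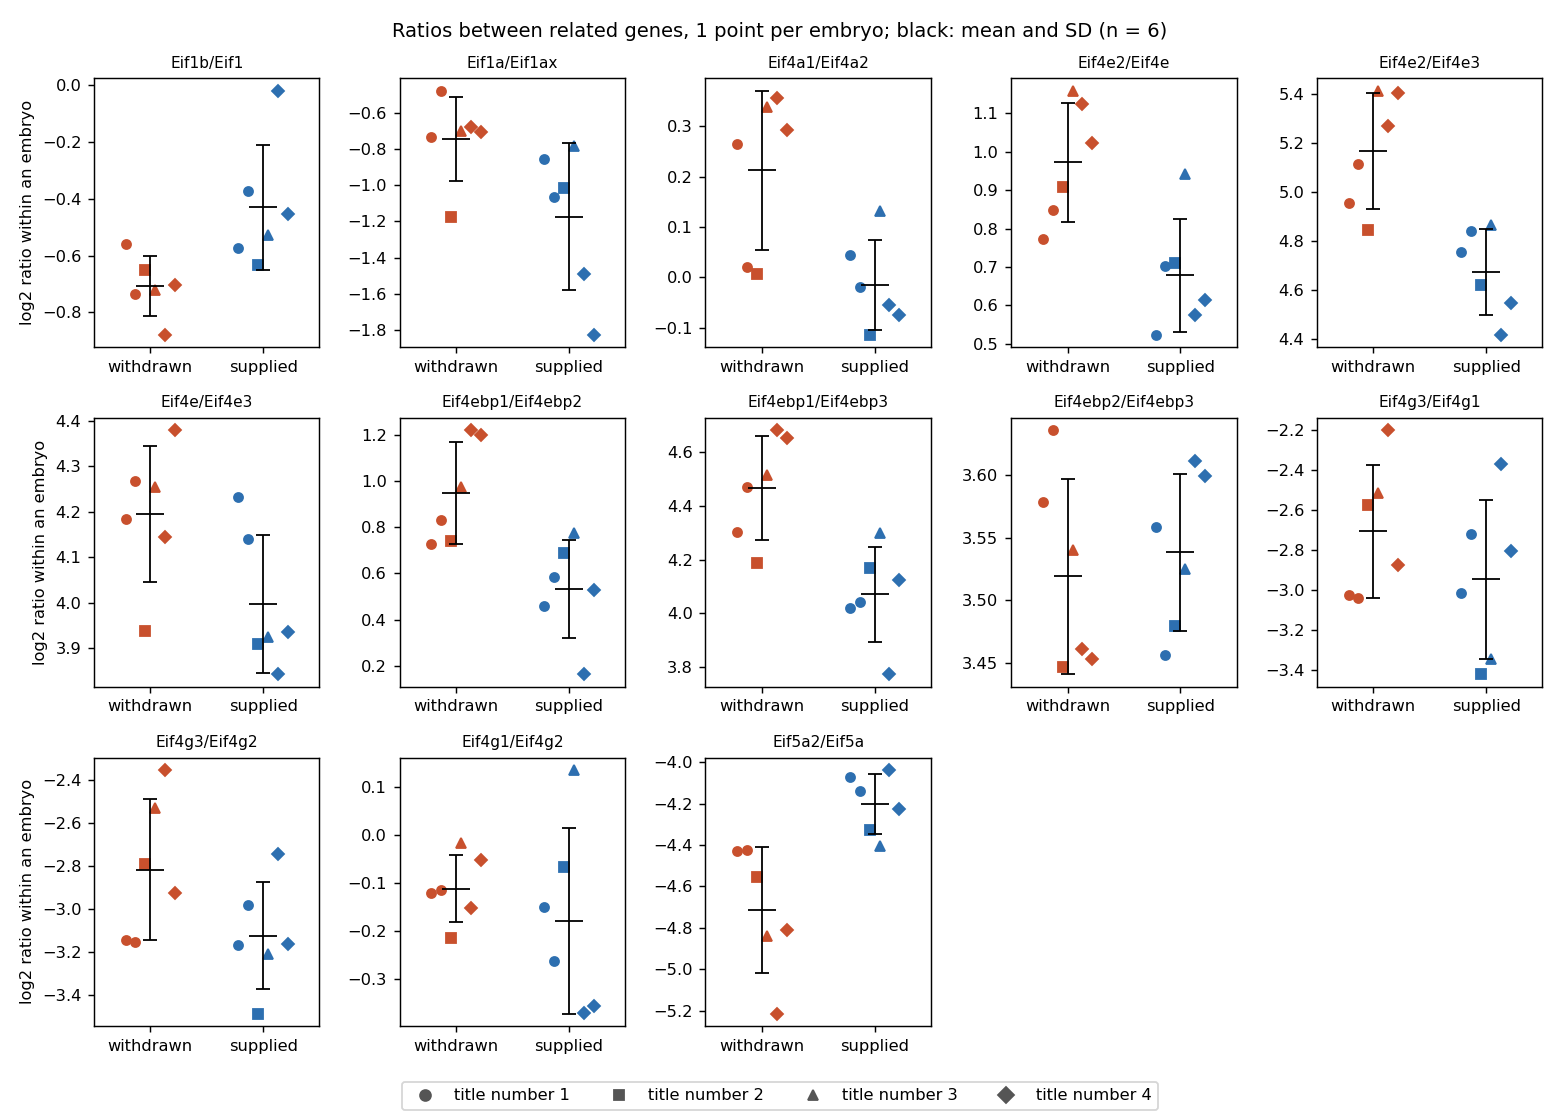
Log2 ratio between related genes inside each embryo, 1 point per embryo, with withdrawn embryos in red on the left and supplied embryos in blue on the right; marker shapes give the title number, and black bars the mean and SD of 6 embryos. The ratio of Eif5a2 to Eif5a shows no overlap, with a narrow gap between the highest withdrawn embryo (-4.43) and the lowest supplied embryo (-4.41). The ratio of Eif4ebp2 to Eif4ebp3 overlaps fully.

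The difference between the diets was also taken within each title number. The 10 called genes kept their direction in 4 of 4 numbers, as did 80.4% of all 1737 called genes, 44.3% of the 61 factors and 30.4% of all genes, and the calls rest on these same embryos. All 10 had their largest difference in number 4, as did 78.9% of all called genes, 59.0% of the 61 factors and 44.1% of all genes. For Eif3l the differences in numbers 1 to 4 were 0.32, 0.35, 0.14 and 0.68 on the log2 scale. They were 0.20, 0.44, 0.16 and 0.66 for Eif2s2 and 0.21, 0.22, 0.33 and 0.60 for Eif4e2. For Eif4ebp1 they were 0.39, 0.17, 0.14 and 0.72, and for Eif5a2 -0.16, -0.14, -0.33 and -0.58. Numbers 1 and 4 hold 2 embryos of each diet and numbers 2 and 3 hold 1 of each.

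Over all 61 factors, the number with a positive difference was 45, 36, 39 and 46 in title numbers 1 to 4, and the median difference was 0.06, 0.07, 0.05 and 0.17. Withdrawn replicate 5, of number 4, was the most extreme withdrawn embryo in 8 of the 10 called genes. Supplied replicate 4, of number 3, was the supplied embryo nearest the withdrawn side in 8 of the 10. Without title number 4, Eif3l was at 0.28, adjusted p = 0.0814, Eif2s2 at 0.25, adjusted p = 0.141, Eif4e2 at 0.25, adjusted p = 0.180 and Eif5a2 at -0.19, adjusted p = 0.333 (limma).

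**Figure D4:**
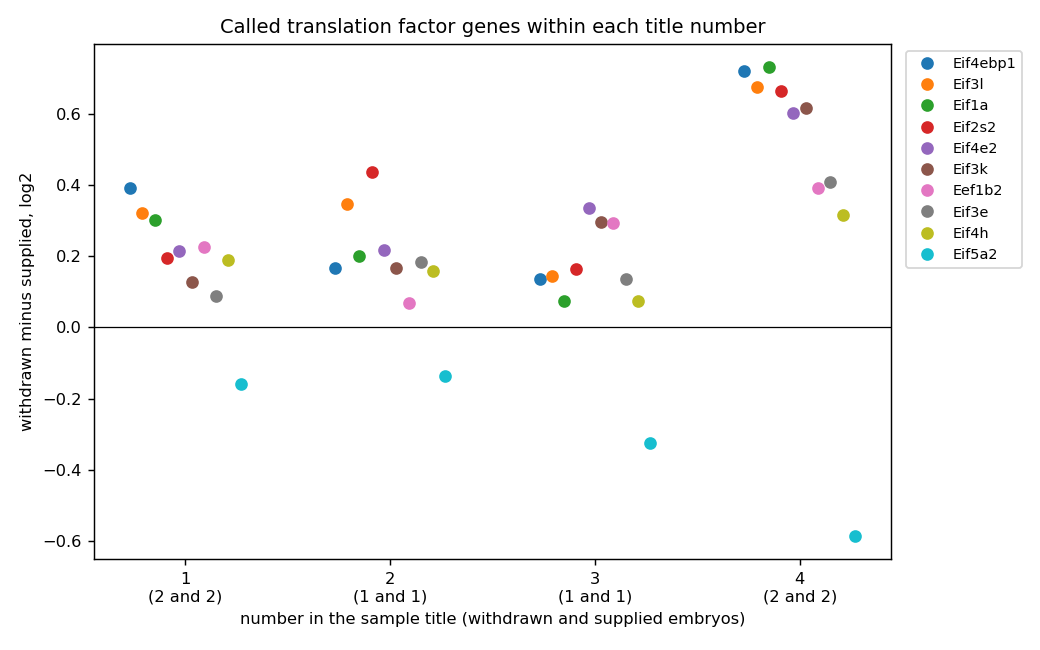
Difference between the withdrawn and the supplied mean, on the log2 scale, within each number of the sample titles for the 10 called genes; the numbers under the axis give withdrawn and supplied embryos, and points are set side by side only to separate them. The 9 genes called higher lie above 0 in every number, Eif5a2 lies below 0 in every number, and all 10 lie furthest from 0 in number 4.

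The calls differed in how often they held. Over 28 alternative fits, Eif3l and Eif2s2 each lost their call in 2, Eif4e2 in 3, Eif4ebp1 in 4 and Eif1a and Eif5a2 in 6 each. Eef1b2 and Eif3k lost it in 13 each, Eif4h in 17 and Eif3e in 18. None of the 10 changed direction in any of the 28.

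Levels between genes were set against each other per kilobase of transcript, by taking log2 of the transcript length from the mean value over the 12 embryos. Elongation factors led this order, with Eef1a1 at 13.68, Eef2 at 13.03 and Eef1b2 at 12.47, followed by Eif3g at 12.34, Eif5a at 11.87 and Eif3a at 11.74. The lowest were Eef2k at 2.17, Eif2c4 at 3.75, Eif2c3 at 4.52 and Eif4e3 at 4.90. On that scale Eif4e2 (10.30) lay above Eif4e (8.01), and Eif4ebp1 (8.84) above Eif4ebp2 (6.57). The called genes spanned levels from 5.61 for Eif5a2 to 12.47 for Eef1b2.

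Longer transcripts had lower fold changes among the 61 genes (Spearman's rho = -0.39 across genes, which are not independent), and over all genes with a length rho was -0.25. Median transcript length was 2515 bases for the factors and 3100 bases for all genes. With the trend on length and GC content removed, 10 genes were called higher and 1 lower, where 7.95% of all genes were called higher, and 49 of 61 were positive. Eif4ebp1 was then at 0.38, adjusted p = 0.00672, and Eif3l at 0.38, adjusted p = 0.00145 (limma).

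**Figure D5:**
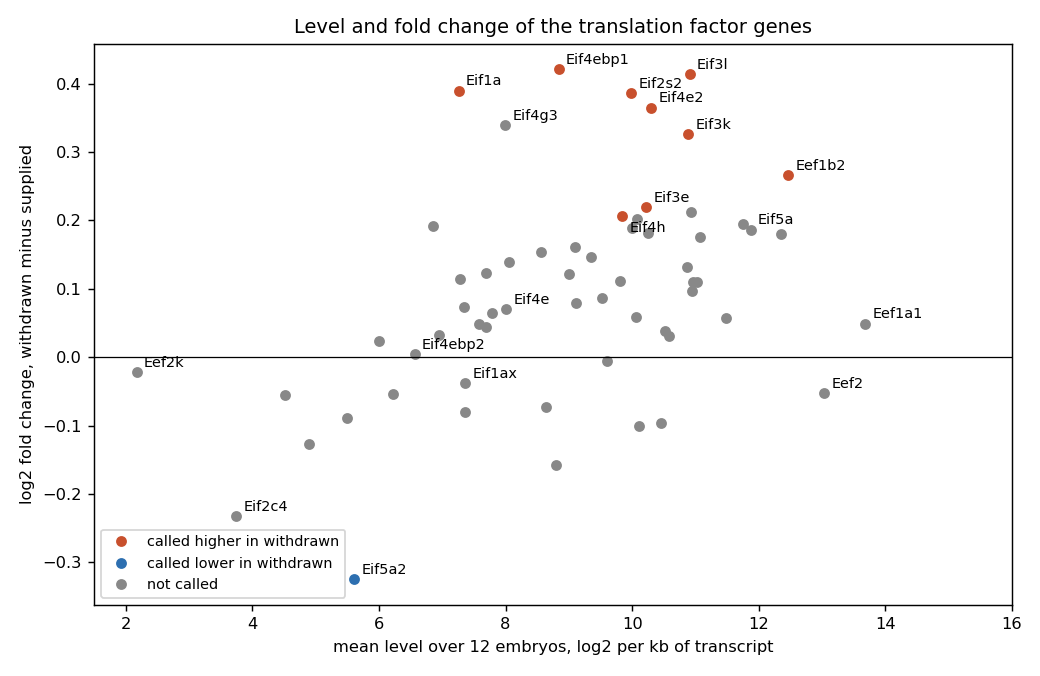
Mean level of the 61 translation factor genes over 12 embryos, in log2 per kilobase of transcript, against the log2 fold change, withdrawn minus supplied; red marks genes called higher in withdrawn embryos, blue the gene called lower and grey the others. The most abundant factors, Eef1a1 and Eef2, lie near 0, and the genes called higher spread over levels from 7.26 for Eif1a to 12.47 for Eef1b2.

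Other genes of the translation machinery and its regulation were taken from 9 lists with 71 entries, of which 68 passed the filter. Limma called 9 of these higher and 2 lower, or 16.2% in either direction, against 16.4% of the 61 factors and 14.0% of all genes. The share called higher was 13.2%, against 14.8% of the factors and 6.22% of all genes. Of the 68, 43 or 63.2% had positive fold changes, and the median was 0.04, between the medians of the factors and of all genes. The single lists below are small, and their counts are to be read against the same 14.0%. In termination and recycling, 1 of 7 was called, the release factor gene Etf1 (0.23, adjusted p = 0.0402), and its partner Gspt1 was at 0.20, adjusted p = 0.0515. Among 9 genes that make hypusine or diphthamide, the modifications of eIF5A and eEF2, 1 was called higher. It was the hydroxylase gene Dohh (0.30, adjusted p = 0.0218), whose product completes hypusine, and Dph5 of the diphthamide pathway was at 0.23, adjusted p = 0.0537.

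In the list of poly(A) binding and cap regulators, 1 of 9 was called higher and 1 lower. Larp1, whose protein binds messenger RNAs of ribosomal proteins, was at 0.23, adjusted p = 0.0370, and Pdcd4, whose protein inhibits eIF4A, was at -0.31, adjusted p = 0.0238. Of 2 initiation helicases Ddx3x was called (0.23, adjusted p = 0.0453) and Dhx29 was not (0.04, adjusted p = 0.712). Of 9 genes between mTOR and translation, 1 was called lower, the mTOR inhibitor gene Tsc1 (-0.23, adjusted p = 0.0283), while Rptor was at 0.14, adjusted p = 0.229. Of 9 mitochondrial translation factors, 1 was called higher, the elongation factor gene Gfm1 (0.25, adjusted p = 0.0461), and Mtrf1 was at 0.13, adjusted p = 0.227. Among 4 genes for selenocysteine or stalled ribosomes, limma called 0 and 0 had an unadjusted p below 0.05, where 30.2% of all genes did. Hbs1l was at 0.13, adjusted p = 0.172, and Pelo at 0.08, adjusted p = 0.476.

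Of 6 regulators of the eIF2 kinases and phosphatase, 1 was called higher, Ppp1r15b (0.28, adjusted p = 0.0106), whose product directs the phosphatase to eIF2, and Impact, which restrains GCN2, was at 0.20, adjusted p = 0.106. Of 13 targets of the integrated stress response, which follows eIF2 phosphorylation, 3 were called higher. They were the amino acid transporter genes Slc7a5 (0.40, adjusted p = 0.00665) and Slc3a2 (0.35, adjusted p = 0.00386) and Sesn2 (0.28, adjusted p = 0.0137), which acts on mTOR. The median of that list was 0.01, and 7 of 13 were positive. Just outside the threshold lay Asns (0.21, limma adjusted p = 0.0589) and, in the other direction, Trib3 (-0.21, limma adjusted p = 0.0602). The transcription factor genes of the list, Atf4 (0.03, adjusted p = 0.903) and Ddit3 (-0.02, adjusted p = 0.881), were not called.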

How the data were processed

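The deposited values are normalized log2 expression per gene, made by the authors, in 1 column for each of 12 embryos. The submitters' processing notes name DESeq2 1.10.1, TopHat2 2.0.13, Trim Galore 0.4.0 and FastQC, and the build mm9, in no stated order or role. How reads were counted, on which annotation, and how the log2 scale was made is not given in the sources used here. The files hold no counts, so the depth is unknown and no counting error is given. Per the labels' protocols, the library kit for this column-purified RNA was of the SMART type. Correlations between libraries ranged from 0.987 to 0.999.

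Genes were kept at a mean log2 value of at least 3.32, or 10 before the log, which dropped 84. Withdrawn and supplied embryos were compared with limma 3.58.1 in R 4.3.3, with moderated variances that follow expression, two-sided, adjusted by Benjamini-Hochberg over the 12432 genes kept. Standard errors are the moderated ones. Every member may be named. Full statistics were given to called members and, in each role, to the member with the smallest p, and of the pathway lists the called genes and the 2 with the smallest p were named. Eif5a and Eif4e were given in full beside their relatives, and Eef1a1 for its level, after their values had been seen. Atf4, Ddit3, Asns and Trib3 were also named after their values had been seen. The members and lists were chosen with earlier results of these data known. The fit was tested on simulated data.

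Alternatives changed the filter, scaling, variance model, weights, threshold, test and treatment of title numbers, added a covariate, or left out embryos. Transcript length, GC content and near-identical copies (at least 95% identity over at least 50% of the transcript, BLAST+ 2.17.0) came from a GRCm38 annotation, used for no coordinates. Promoters came from RefSeq in GRCm38.p6, a build other than that of the files, and carry no measured value.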

Additional observations from a re-analysis of the deposited data

Results flagged for a closer look

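In 6 of the 122 groups examined (61 genes in 2 diets), 1 embryo lay further from the others than Dixon's 95% limit for 6 samples allows. Chance alone flags about 1 in 20 groups. All values are normalized log2 expression values.

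Withdrawn replicate 5 was flagged in 3 genes. Eef1a1, the tRNA carrier of elongation, was at 14.64 there, with the next withdrawn embryo at 14.56. Eif2b2, a subunit of the eIF2B exchange factor, was at 7.98, with the next at 7.60. Eif2s1, the alpha subunit of eIF2, was lowest in this embryo at 10.68, with the next at 10.93.

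Supplied replicate 6 was flagged in 2 genes. Eef1a1 was highest in it at 14.64, with the next supplied embryo at 14.51, and Eif2ak2, the kinase PKR, was lowest at 7.35, with the next at 7.65. Supplied replicate 2 was highest for Eif2ak4, the kinase GCN2, at 8.74, with the next at 8.63. None of the 10 called genes was among these.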

How the results depend on the processing

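In the reported fit limma called 9 factor genes higher and 1 lower, and the groups did not overlap for 3. The count called higher was 5 with quantile normalization, or 8.20% of the 61 against 6.00% of all genes. It was 5 with a random effect for embryos that share title number and diet (8.20% against 3.18%) and 2 with such embryos averaged (3.28% against 0.885%). It was 3 with an exact permutation test per gene (4.92% against 2.15%) and 17 at an adjusted p below 0.1 (27.9% against 9.77%). It was 0 with the somatic marker covariate and 0 without title number 4. The count called lower was 2 with array weights, 2 at an adjusted p below 0.1 and 2 without title number 3. Over all genes the share called lower was then 8.63%, 12.1% and 8.51%. The count called lower was 0 with averaged embryos, 0 with the exact test, 0 with the covariate and 0 without title number 4. In these fits that share over all genes was 1.51%, 2.34%, 0.0241% and 0.322%. The groups did not overlap for 7 genes with averaged embryos, and for 7, 5, 5 and 8 without title numbers 1, 2, 3 and 4, where fewer embryos are compared. Over all genes these shares were 11.2% with averaged embryos and between 8.03% and 11.6% without a title number. Averaging and leaving out embryos reduce the number compared. With 6 embryos per diet the exact permutation test has a smallest p of 0.00216, reached only by genes without overlap. Over all genes it called 267 higher and 291 lower, as many as did not overlap, so it repeats the count without overlap. In either direction that share was 4.92% of the 61 and 4.49% of all genes. For the other alternatives the cause was not tested.

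Leaving out 1 embryo gave 5 to 15 called higher, 0 to 2 called lower and 3 to 5 without overlap. Over all genes in these fits, 2.94% to 8.32% were called higher, 3.56% to 10.3% were called lower and 4.69% to 9.77% did not overlap. Without supplied replicate 4 the share without overlap was 8.20% of the 61, against 9.77% of all genes. The count called lower was 0 without supplied replicate 5 or withdrawn replicate 4 and 2 without supplied replicate 4 or withdrawn replicate 3. With title number as a replicate block, 13 were called higher and 2 lower (21.3% called higher, against 7.83% of all genes, of which 8.76% were called lower). The numbers were not taken to pair embryos, since the correlations of deviations from the group means were 0.27, -0.10, 0.18 and -0.17 in numbers 1 to 4. Eef2 reversed to 0.0009 under quantile normalization. None of the 10 called genes changed direction in the 28 alternatives, and 12 of the 61 genes did. Among the 12, Eif4enif1 turned under median centring, and Eef2k, Eif1ax, Eif2c3, Eif4ebp3 and Eif4enif1 turned with the length and GC trend removed. The median fold change of the 61 genes stayed positive in every alternative run, from 0.06 without title number 4 to 0.11 with median centring. Depth is unknown, so low genes cannot be given a limit of detection.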
